A study of Mus musculus with 69 samples.

Results

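Lungs taken 28 days after the highest dose of the titanium dioxide nanomaterial NRCWE-030 were compared with lungs of vehicle-treated mice of the same day. The arrays were chosen by their labels alone, 5 of NRCWE-030 at 162 µg and 5 of control, which made 10 of the 69 arrays of the series. The series profiled lung tissue of female C57BL/6 mice after a single intratracheal instillation of 18, 54 or 162 µg of NRCWE-030 or NRCWE-025, also titanium dioxide, or of vehicle only. Tissue was collected 24 h or 28 days later. Mice were 5-7 weeks old when obtained and acclimatised for 1-3 weeks before the instillation. The vehicle held 2% serum, and the control mice received it without particles. Each array held RNA from a small frozen piece of the lung of 1 mouse, labelled with Cy5, beside a commercial pool of mouse RNA labelled with Cy3. Values are log2(lung/reference), so that a difference of 1 between groups is a doubling of the signal, and values of different genes are not set against each other. Errors of differences are standard errors (SE) and errors of group means are standard deviations (SD).

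Titanium dioxide is a poorly soluble powder, and particles that reach the alveoli are largely taken up by macrophages and cleared slowly. The lung answers instilled particles with acute phase proteins such as the serum amyloids, with chemokines that recruit leukocytes and, over longer times, with genes of macrophage lysosomes and of the matrix. The lung also holds a circadian clock, in which Arntl (BMAL1) with CLOCK drives the Per, Cry and Nr1d genes, whose products in turn restrain Arntl, and in which the output factors Dbp, Hlf and Tef act on genes that Nfil3 represses.

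The arrays held lung RNA by the markers chosen for it. On all 10 arrays Sftpc (surfactant protein C) lay between 6.93 and 8.03, Sftpb between 3.70 and 4.08, the club cell gene Scgb1a1 between 5.58 and 7.75, Ager of alveolar type 1 cells between 5.07 and 5.86, and the endothelial gene Pecam1 between 2.73 and 3.38. Between 58.0% and 71.3% of spots were well above background in the Cy5 channel. Control and treated mice shared 3 slides (control replicates 1, 3 and 5 with treated replicates 1, 2 and 3), while treated replicates 4 and 5 lay on slides and were scanned on days that held no control of day 28. In bulk tissue, fewer cells of a type and less RNA per cell cannot be told apart.

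Few genes passed the test, and they were led by clock genes and by the matrix protein gene Spon2. Of 18660 genes tested, 18 (0.0965%) had an adjusted p under 0.05 in limma after Benjamini-Hochberg adjustment over all genes, 11 of them higher (0.0589%) and 7 lower (0.0375%) in the treated lungs. An unadjusted p under 0.05 was reached by 1401 genes (7.51%), 739 higher and 662 lower. In each of the 18 genes the treated and control arrays did not overlap, against 394 genes (2.11%) among all tested, 1.09% on the higher and 1.02% on the lower side. The median change over all genes was -0.0020, and 6 of the 18 changed by more than 1 on the log2 scale. The number of calls depended on the values used: the split was 14 higher and 20 lower in the series matrix values, 5 and 5 without background correction, and 2 and 3 both without the replacement of marked backgrounds and with median centring in place of loess. With slide as a fixed block 50 genes passed, 13 of the 18 among them, and with scan day as a block 12 passed, 7 of the 18 among them. The count fell to 11 without control replicate 3 and to 4 without the arrays of slide 6, and was 38 without replicate 5 of the 18 µg group, which enters only through the shared estimate of the spread.

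**Figure D1:**
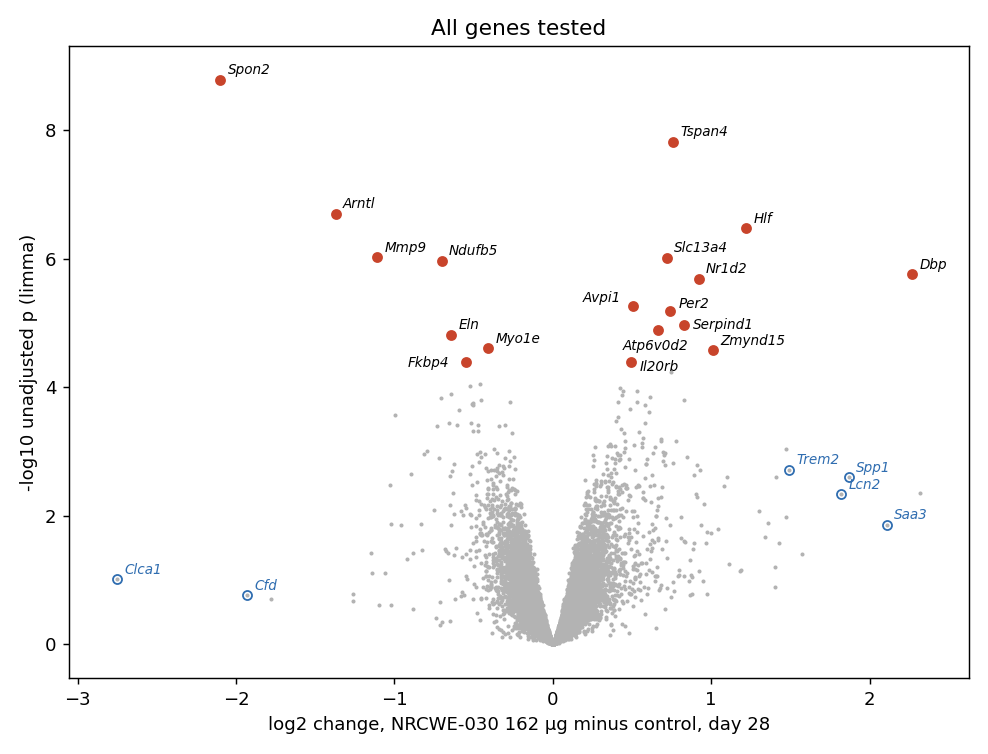
All 18660 genes tested, with the log2 change (treated minus control) on the horizontal axis and -log10 of the unadjusted limma p on the vertical axis. Red points are the 18 genes with an adjusted p under 0.05, and blue rings are genes with large changes that did not pass, among them Saa3 at 2.11 and Clca1 at -2.75.

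The clock genes that passed differed in the same direction in all 5 treated mice. Arntl, the activator of the clock, stood at 0.37, 0.55, 0.68, 0.19 and 0.46 in the 5 controls and at -0.71, -0.98, -0.90, -0.97 and -1.06 in the treated mice. Every treated lung was below every control lung, and the fall of 1.37 on the log2 scale (SE 0.18, 2.59-fold, limma adjusted p = 0.00124) was seen within each shared slide, at -1.09, -1.66 and -1.35. Dbp, an output factor whose transcription Arntl drives, stood at -0.84, -1.18, -1.36, 0.55 and 0.55 in controls and at 1.46, 1.76, 2.04, 1.99 and 1.79 in treated mice. Controls 4 and 5 were closer to the treated mice than the other controls were, and all 5 treated mice were above both (log2 change 2.27, SE 0.34, 4.81-fold, limma adjusted p = 0.00405).

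Hlf, which belongs to the same family of output factors as Dbp, read 1.34, 1.18, 0.83, 1.37 and 1.84 in controls against 2.63, 2.64, 2.73, 2.53 and 2.13 in treated mice. It rose by 1.22 (SE 0.16, limma adjusted p = 0.00158), with treated replicate 5 the lowest of its group. Nr1d2 (REV-ERBβ), a repressor of Arntl, read 0.86, 0.55, 0.42, 0.94 and 1.33 in controls against 1.81, 1.78, 1.82, 1.85 and 1.44 in treated mice. It rose by 0.92 (SE 0.14, limma adjusted p = 0.00426), and the within-slide differences ran from 0.50 on the slide of control 5 to 1.35. Per2, a repressor of the Arntl and CLOCK pair, read 0.35, 0.20, 0.25, 0.03 and 0.43 in controls against 0.91, 1.00, 1.18, 1.15 and 0.72 in treated mice. It rose by 0.74 (SE 0.12, limma adjusted p = 0.0111), and the rise came from 1 of its probes, at 1.38 (SE 0.21), while the other was at 0.09 (SE 0.10).

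Of 16 core clock genes tested, 2 passed as higher (Nr1d2, Per2) and 1 as lower (Arntl), against 0.0589% and 0.0375% of all genes. The median over the list was 0.15. The mean over the list was 0.20 in treated replicate 5, within the controls (0.11 to 0.30), but it mixes activators with repressors. Over the 10 repressors the mean per mouse ran from 0.276 to 0.559 in treated mice and from -0.111 to 0.171 in controls. Over the 3 activators it ran from -0.365 to 0.099 in treated mice and from 0.225 to 0.482 in controls. Both means include genes that passed. All 10 repressors tested had a change above 0, with a median of 0.28. Of them 4 had an unadjusted p under 0.05, all higher (3.96% of all genes). Clock itself, the partner of Arntl, was at -0.22 (SE 0.14), and did not pass. Npas2, which can take its place, was well above background on 2 of 5 control and 0 of 5 treated arrays, and Cry1 on 1 of 5 in each group, so that their values show little of their change. Per1 was at 0.65 (SE 0.36) with wide spread in both groups, Per3 at 0.31 (SE 0.16), Cry2 at 0.25 (SE 0.13) and Nr1d1 at 0.22 (SE 0.11), none of which passed. Of 9 clock output genes 2 passed, both higher (Dbp, Hlf, against 0.0589% of all genes), and the median was 0.32. Tef, the third factor of the Dbp family, was at 0.44 (SE 0.093, limma adjusted p = 0.0904), with control replicate 5 inside the treated range, and its 3 probes gave 0.31, 0.44 and 0.94. Nfil3, the repressor of the genes that Dbp activates, was at -0.55 (SE 0.18, limma adjusted p = 0.449). The hour of tissue collection is not in the labels.

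The start regions of a few of these genes are shown because the clock genes act on each other through such motifs. They are the 250 bases before the annotated start in RefSeq for GRCm38.p6, which served here for sequence only since the array was designed on an earlier assembly, and 14 of 16 genes looked for had an entry. Capitals mark the E-box CACGTG, which the Arntl and CLOCK pair binds, the D-box TTATGTAA of the Dbp family, or AGGTCA, the half-site of the Nr1d and Ror receptors, searched on both strands with no overlap between them. Among all 32851 start regions of this length in the table, 6.02% held the E-box, 0.819% the D-box and 14% the half-site.
Arntl (chr7:113207215-113207464, plus strand): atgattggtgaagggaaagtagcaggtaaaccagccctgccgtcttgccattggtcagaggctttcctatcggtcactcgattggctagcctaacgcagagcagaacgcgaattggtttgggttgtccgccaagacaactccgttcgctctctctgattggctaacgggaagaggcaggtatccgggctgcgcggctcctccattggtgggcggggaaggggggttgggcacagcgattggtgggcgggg
Dbp (chr7:45704997-45705246, plus strand): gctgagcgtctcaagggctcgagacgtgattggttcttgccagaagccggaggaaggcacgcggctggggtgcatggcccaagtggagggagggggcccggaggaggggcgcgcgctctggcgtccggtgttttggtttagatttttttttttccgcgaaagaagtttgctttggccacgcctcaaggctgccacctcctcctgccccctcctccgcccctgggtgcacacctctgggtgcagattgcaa
Nr1d2 (chr14:18239107-18239356, minus strand): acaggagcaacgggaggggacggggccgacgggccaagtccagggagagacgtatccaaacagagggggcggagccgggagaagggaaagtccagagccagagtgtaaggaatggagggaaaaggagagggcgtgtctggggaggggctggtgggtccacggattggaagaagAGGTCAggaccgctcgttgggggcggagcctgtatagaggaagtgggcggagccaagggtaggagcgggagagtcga
Tef (chr15:81802423-81802672, plus strand): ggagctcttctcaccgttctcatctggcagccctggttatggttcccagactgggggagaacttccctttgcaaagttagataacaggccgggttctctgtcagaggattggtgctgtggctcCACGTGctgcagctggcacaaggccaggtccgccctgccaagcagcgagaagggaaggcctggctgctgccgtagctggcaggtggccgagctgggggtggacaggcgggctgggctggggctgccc
Tspan4 (chr7:141476130-141476379, plus strand): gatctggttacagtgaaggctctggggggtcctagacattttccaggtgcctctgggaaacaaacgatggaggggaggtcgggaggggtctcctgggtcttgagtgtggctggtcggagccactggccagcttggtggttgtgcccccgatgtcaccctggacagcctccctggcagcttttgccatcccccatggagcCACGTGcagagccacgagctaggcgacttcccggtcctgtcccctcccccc
The second annotated start of Tspan4 held an E-box 45 bases before the start, as did the first of Tef 121 bases before it, and Nr1d2 held the half-site 71 bases before its start. Arntl and Dbp held none of the motifs in the windows shown, and neither did those of Hlf, Nr1d1, Cry2 and Npas2, the first start of Tspan4, the second of Per1 and the first and second of Clock. An E-box lay in the second window of Tef, the first of Per1 and that of Cry1, the D-box in that of Per3, and the half-site in those of Nfil3, the first start of Per1 and the third of Clock. A match is a run of letters and says nothing of binding in these lungs. The absence of a match covers only these exact letters within the 250 bases, not variant or more distant sites.

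Spon2 (spondin 2), a secreted protein of the matrix that binds microbial surfaces and integrins, had the smallest p of all genes. It stood at 0.48, 0.34, 0.27, -0.46 and -0.09 in controls and at -1.72, -1.94, -2.33, -2.21 and -1.75 in treated mice. The groups were far apart, the within-slide differences were -2.20, -2.21 and -2.24, and both probes fell, by 2.07 and by 2.12. Spon2 fell by 2.10 on the log2 scale (SE 0.20, 4.28-fold, limma adjusted p = 3.09e-05). Its relative Spon1 was at 0.23 (SE 0.17), with overlapping groups.

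Among genes of the matrix more lay below the controls than above. Mmp9, the gelatinase stored in neutrophil granules, read -0.93, -0.39, -0.36, -0.79 and -0.64 in controls against -1.84, -1.74, -1.54, -1.83 and -1.71 in treated mice. The treated mice lay close together below all controls, and Mmp9 fell by 1.11 (SE 0.16, limma adjusted p = 0.00289). Eln, which encodes elastin, lay between 1.93 and 2.27 in controls and between 1.44 and 1.61 in treated mice, and fell by 0.64 (SE 0.11, limma adjusted p = 0.0203). It passed in 6 of 16 alternative settings and in 13 of 20 fits that each left out 1 array. Of 51 matrix genes tested 3 passed, all lower (Spon2, Mmp9, Eln), against 0.0375% of all genes. An unadjusted p under 0.05 was reached by 11 lower and 2 higher (all genes: 3.55% lower and 3.96% higher), and the list median was -0.17. With median centring in place of loess that median was 0.01, which was -0.10 relative to all genes. Against the same controls the list median was -0.185 at 18 µg, -0.134 at 54 µg and -0.165 with 162 µg of NRCWE-025. The fibrillar collagens Col1a1 at -0.36 (SE 0.17) and Col3a1 at -0.29 (SE 0.16) did not pass, nor did Timp1, an inhibitor of matrix proteases, at 0.34 (SE 0.21). The protease gene Adamts9 was at -0.51 (SE 0.11, limma adjusted p = 0.0962). Its probes gave -0.81 (SE 0.17) and -0.21 (SE 0.11), the latter well above background on 2 of 5 control and 1 of 5 treated arrays.

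Tspan4, a tetraspanin of the cell membrane, rose with little spread. It read -0.75, -0.70, -1.08, -0.77 and -0.86 in controls and -0.17, -0.08, 0.08, -0.08 and -0.12 in treated mice. The groups were separate, and the rise was 0.76 (SE 0.084, 1.69-fold, limma adjusted p = 0.000141). Of 23 tetraspanins tested it alone reached an adjusted or an unadjusted p under 0.05 (0.0589% and 3.96% of all genes, as higher). The median of the list was 0.01.

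The remaining genes that passed have varied roles. Slc13a4, a sulfate transporter, read 1.88, 2.11, 2.30, 1.85 and 2.15 in controls against 2.90, 2.73, 2.69, 2.76 and 2.81 in treated mice, and rose by 0.72 (SE 0.10, limma adjusted p = 0.00289). It passed in 8 of 16 alternative settings, and in the scanner's own log ratio its change was 0.12 (limma adjusted p = 0.995). Serpind1 (heparin cofactor II, a thrombin inhibitor) rose by 0.83 (SE 0.14), Zmynd15 by 1.01 (SE 0.19), Avpi1 by 0.51 (SE 0.083) and Il20rb, a subunit of receptors for cytokines of the IL-20 group, by 0.49 (SE 0.095). Ndufb5, a subunit of mitochondrial complex I, fell by 0.70 (SE 0.10), and its controls lay within -0.14 and -0.06. Myo1e, a class I myosin, fell by 0.41 (SE 0.075), and Fkbp4, a co-chaperone of HSP90, by 0.55 (SE 0.11). The probes of Myo1e gave -0.39 (SE 0.12), -0.28 (SE 0.12) and -0.19 (SE 0.15). Each was smaller in size and had a larger SE than the gene value, a median over probes on each array. Not all of these calls were firm. Of the 20 fits that each left out 1 array, Fkbp4 passed in 5, Il20rb in 7, Myo1e and Zmynd15 in 12 and Serpind1 in 15. Spon2, Tspan4, Arntl, Hlf, Mmp9, Slc13a4, Ndufb5, Dbp, Nr1d2 and Avpi1 passed in all 20, and Per2 in 19. Of the 16 alternative settings, Spon2 and Arntl passed in 15, Tspan4 in 14, and Hlf, Mmp9 and Dbp in 13. Ndufb5 passed in 12, Nr1d2 and Avpi1 in 11, Per2 in 10, Serpind1, Zmynd15 and Fkbp4 in 8, Myo1e in 7 and Il20rb in 6.

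Genes that just missed the threshold included Ctsc, a lysosomal protease, at 0.74 (SE 0.15, limma adjusted p = 0.0574), Scrg1 at -0.46 (SE 0.094), Mrps6 of the mitochondrial ribosome at -0.52 (SE 0.11), the calcium channel gene Itpr3 at 0.42 (SE 0.088), Cpeb1 at 0.53 (SE 0.11) and Hsp90aa1 at -0.64 (SE 0.14).

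Heat shock genes were low in the treated lungs as a group, although no member passed. Of 20 genes of the heat shock and cold list tested, 0 passed in limma at an adjusted p under 0.05. An unadjusted p under 0.05 was reached by 11 lower and 2 higher (3.55% and 3.96% of all genes). In every treated mouse 7 lay below every control (1.02% of all genes did). The list median was -0.32. Against the same controls it was -0.348 at 18 µg, -0.282 at 54 µg and -0.415 with 162 µg of NRCWE-025. Hsph1, a chaperone of the HSP110 family, read 0.07, -0.11, -0.14, -0.49 and -0.19 in controls against -1.22, -0.74, -1.11, -1.35 and -1.42 in treated mice. Every treated mouse was lower, with a difference of -1.0 (SE 0.23, limma adjusted p = 0.124). Hspa8, the constitutive HSP70, was at -0.62 (SE 0.17) and Hsp90ab1 at -0.45 (SE 0.097). The 2 genes on the higher side included Cirbp, a cold-inducible RNA-binding protein, at 0.56 (SE 0.14, limma adjusted p = 0.219). The median of the list was -0.05 with median centring in place of loess, where the median over all genes was 0.118.

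Inflammatory genes were high in some treated mice and not in others. Saa3, the serum amyloid of the lung and of macrophages, stood at -3.50, -3.31, -3.55, -2.89 and -3.22 in controls and at -2.38, 0.02, -0.63, -3.90 and 0.99 in treated mice. Replicates 2 and 5 were far above the controls, replicates 3 and 1 were above them by less, and replicate 4 was below every control, so that the difference of 2.11 (SE 0.78) did not pass (limma adjusted p = 0.522). Lcn2 (lipocalin 2), an iron-sequestering acute phase protein, showed the same order of mice: controls lay between 1.23 and 1.52, and the treated mice read 2.68, 4.11, 3.65, 1.18 and 4.43. Its difference was 1.82 (SE 0.57, limma adjusted p = 0.376).

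Spp1 (osteopontin), made by activated macrophages, lay between -5.22 and -4.15 in controls and read -4.07, -2.01, -2.97, -4.25 and -1.71 in treated mice, a difference of 1.87 (SE 0.54, limma adjusted p = 0.311). Trem2, a lipid-sensing receptor of macrophages, lay between -2.28 and -1.95 in controls and read -1.22, 0.23, -0.55, -2.10 and 0.67. Again replicates 2 and 5 were high and replicate 4 lay among the controls. The chemokine Ccl2, which attracts monocytes, ran from -4.40 to -1.37 in treated mice against -4.68 to -3.92 in controls, and Cxcl5, which attracts neutrophils, from -4.35 to -0.51 against -3.78 to -3.14. Ccl12 (log2 difference 1.41, SE 0.41) and Ch25h, which makes an oxysterol, (1.47, SE 0.38) had no overlap between the groups, yet neither passed, at limma adjusted p of 0.308 and 0.230.

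Among 22 acute phase genes, 42 chemokine and cytokine genes and 30 interferon-stimulated genes, 0 passed in limma at an adjusted p under 0.05. An unadjusted p under 0.05 was reached, as higher, by 4, 13 and 3 of them, and as lower by 0, 1 and 0 (3.96% and 3.55% of all genes). The list medians were 0.23, 0.23 and 0.44. All 30 interferon-stimulated genes were above 0, among them Irf7 at 1.18 (SE 0.62) and Isg15 at 0.88 (SE 0.61), but their mean over the list was 2.04 in treated replicate 5 and 0.40 in replicate 4, against 0.46 to 0.71 in controls. Without replicate 5 their median was 0.22. The cytokine genes Il1b (-0.39, SE 0.25), Il6 (0.09, SE 0.18) and Tnf (0.34, SE 0.17) had overlapping groups and did not pass.

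Macrophage and lysosome genes leaned to higher values. Of 57 tested 1 passed, as higher (0.0589% of all genes). This was Atp6v0d2, a subunit of the proton pump of macrophage and osteoclast lysosomes. It lay between -0.07 and 0.42 in controls and between 0.55 and 1.14 in treated mice, and rose by 0.67 (SE 0.12, limma adjusted p = 0.0186). It passed in 6 of the 16 alternative settings. An unadjusted p under 0.05 was reached by 22 genes as higher and 0 as lower (3.96% and 3.55% of all genes), and the list median was 0.18. Tlr2, a receptor for bacterial lipoproteins, was above every control in every treated mouse (0.83, SE 0.18, limma adjusted p = 0.0962). Itgax (CD11c) was at 0.61 (SE 0.14), the cathepsin genes Ctss at 1.08 (SE 0.33) and Ctsk at 0.89 (SE 0.37), and Gpnmb, a glycoprotein of laden macrophages, at 0.91 (SE 0.25), with replicates 2 and 5 the highest in each. The Gpnmb value combined a probe at 1.67 (SE 0.46) with another at 0.15 (SE 0.10). The latter was well above background on 0 of 5 arrays in each group. Marco, a scavenger receptor of alveolar macrophages, was at 0.43 (SE 0.28) with overlapping groups.

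Neutrophil genes leaned to lower values, with 4 of 18 above 0. Of the 18, 1 passed (Mmp9), as lower (0.0375% of all genes), and the median was -0.18. An unadjusted p under 0.05 was reached by 6 lower and 2 higher (3.55% and 3.96% of all genes). The largest change of the list in either direction was that of Lcn2, higher at 1.82, which is also in the acute phase list and did not pass. S100a8, S100a9, Cxcr2 and Retnlg were at -1.02, -0.45, -0.65 and -1.03 without passing, and the controls were spread: S100a8 read 4.00, 4.70 and 4.65 in controls 1 to 3 but 2.41 and 2.75 in controls 4 and 5, against 1.85 to 3.08 in treated mice. Controls 4 and 5 lay inside the treated range. The probes of Cxcr2 gave -1.09 (SE 0.29) and -0.20 (SE 0.12), the latter well above background on 4 of 5 control and 1 of 5 treated arrays.

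Other tissue and cell type lists showed where single mice stood apart. The mean over alveolar type 1 markers was 3.32 and 3.46 in treated replicates 2 and 5, the mice with the highest inflammatory values, against 3.85 to 4.12 in controls and 4.06 to 4.12 in the other treated mice. Akap5 (5.49 and 5.71) and Clic5 (5.02 and 5.12) were the lowest of their groups in the same mice. The mean over heart and skeletal muscle genes was 2.31 and 2.36 in these replicates, 0.48 or lower in the other treated mice, and 0.55 to 2.16 in controls. Mesothelial and thymic markers averaged -0.45, -0.47 and -0.31 in treated replicates 2, 4 and 5 and 0.18 to 0.25 in controls. Of these lists 0 genes passed in limma, and 0 alveolar type 1 and 0 muscle genes had an unadjusted p under 0.05. Of 9 mesothelial and thymic markers 4 had one as lower (3.55% of all genes). The part of cell and tissue makeup of the sections in the inflammatory values was not tested.

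B and plasma cell, MHC class II, alveolar type 2, endothelial and cell cycle genes held 0 members with an adjusted or an unadjusted limma p under 0.05, among 21, 9, 11, 18 and 26 tested. Over all genes 3.96% reached an unadjusted p under 0.05 as higher and 3.55% as lower. Mki67, a proliferation marker, was at -0.18 (SE 0.21). Of 29 T and NK cell genes 5 had an unadjusted p under 0.05, all higher, and 0 passed, with a median of 0.08. Of 36 oxidative stress genes 0 passed, 4 higher and 1 lower had an unadjusted p under 0.05, and Hmox1 (heme oxygenase 1) was at 0.03 (SE 0.12), while Cybb, the catalytic subunit of the phagocyte oxidase, was at 0.70 (SE 0.19, limma adjusted p = 0.238). Of 18 p53 targets 0 passed, and Cdkn1a was at 0.03 (SE 0.23). Of 25 immediate early genes 0 passed and 5 had an unadjusted p under 0.05, all higher, with Fos at 0.90 (SE 0.28) and Egr1 at 1.04 (SE 0.40). Control replicates 4 and 5 had the highest Fos and Egr1 values of the controls, as they did for Dbp.

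The biclusters, gene sets that the study drew from lung disease models, had 0 members that passed in limma. Bicluster-7, which the study ties to pulmonary fibrosis, had 10 of 19 genes with an unadjusted p under 0.05, all higher (3.96% of all genes), and a median of 0.34. Its mean per mouse ran from -0.52 in replicate 4 to 0.28 in replicate 5 against -0.58 to -0.37 in controls. The study found this set enriched in most of its experiments with carbon nanotubes and carbon black, and named only those materials as potentially fibrogenic. The study compared dose-effect statistics over several doses in a set with those of all genes. The counts here, from 1 dose on 1 day, are a different measure and do not test its result. Bicluster-3, which the study ties to chemokine activity and reports as enriched for most nanomaterials, had 6 of 16 genes with an unadjusted p under 0.05. Its median was 0.48, and its mean per mouse ran from 0.04 in replicate 4 to 1.33 in replicate 5 against 0.10 to 0.35 in controls. Bicluster-1 had 7 of 17, with a median of 0.34 that was 0.18 without treated replicate 5, and its mean per mouse ran from -1.18 in replicate 4 to 0.29 in replicate 5 against -1.04 to -0.78 in controls. Bicluster-8 had 6 of 15, with a median of 0.39. Its mean per mouse ran from 0.87 in replicate 4 to 1.83 in replicate 5 against 0.74 to 1.07 in controls. The genes counted were all higher in bicluster-3, bicluster-1 and bicluster-8. Bicluster-2, with many cell cycle genes, and bicluster-9, with many heart and muscle genes, had 0 genes with an unadjusted p under 0.05.

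The lower doses on the same day place these values. The test over control and all 3 doses called 19 genes (0.102%), while 162 µg against the mean of 18 and 54 µg called 0 in limma (611, or 3.27%, at an unadjusted p under 0.05), with the smallest adjusted p, 0.229, for Tspan4 at 0.42 (SE 0.072). The changes against control, which share the 5 control mice, are given side by side. Over all genes 22 (0.118%) passed at 18 µg and 10 (0.0536%) at 54 µg, and 4 (0.0214%) with 162 µg of NRCWE-025. The NRCWE-025 count came from 4 treated mice and the fit of the 34 arrays of day 28, the others from the fit of 20 arrays. These counts are therefore not like for like. Arntl was at -0.14, -1.11 and -1.37 at 18, 54 and 162 µg, Spon2 at -0.65, -1.73 and -2.10, Tspan4 at 0.08, 0.60 and 0.76, and Dbp at 1.07, 2.11 and 2.27. Hsph1, in contrast, was at -1.25, -1.01 and -1.0, and Hspa8 at -1.02, -0.75 and -0.62. Saa3 was at -0.15, 1.85 and 2.11.

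**Figure D2:**
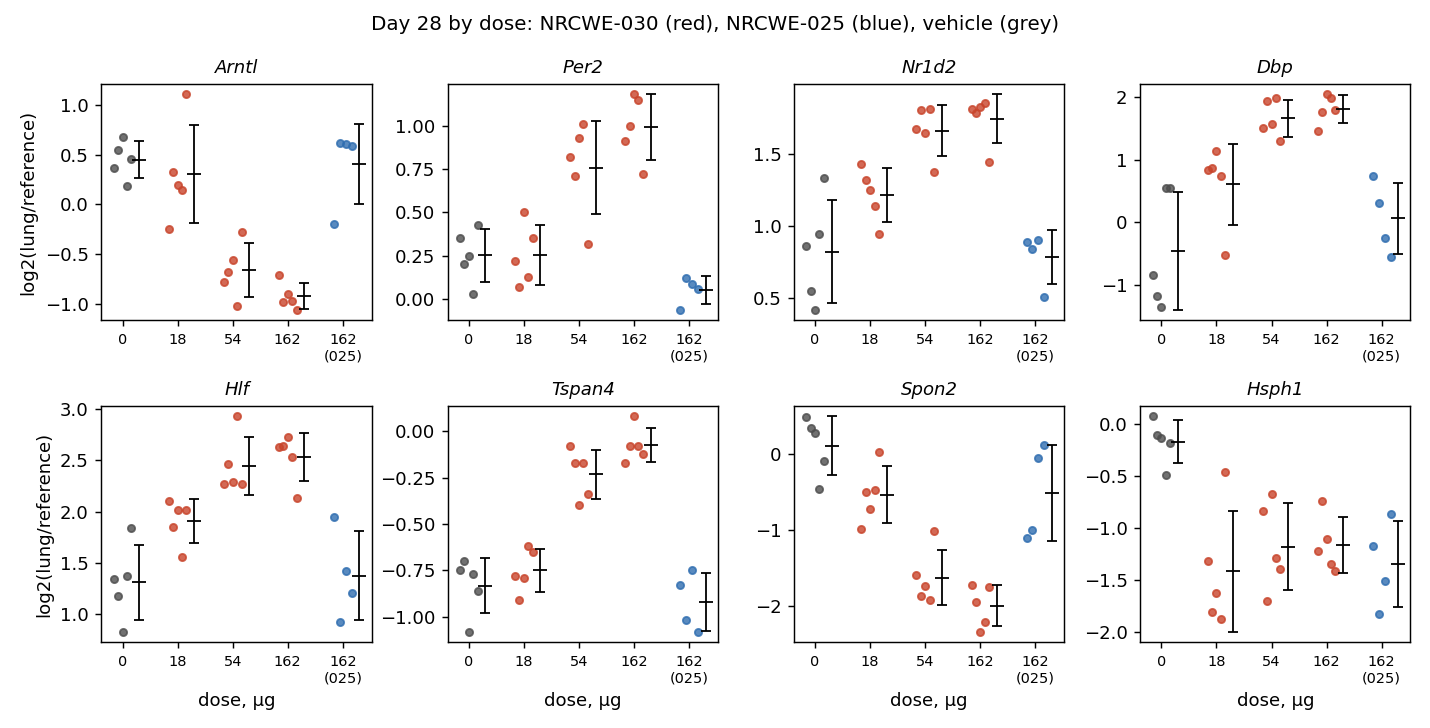
log2(lung/reference) on day 28 for 8 genes by dose in µg, with 1 point per mouse and the mean with SD beside it: vehicle in grey, NRCWE-030 in red, and NRCWE-025 at 162 µg in blue, marked 025. Arntl was at -1.11 and -1.37 and Tspan4 at 0.60 and 0.76 against control at 54 and 162 µg of NRCWE-030.

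The direct contrast with NRCWE-025 at the same mass on day 28 (4 mice), in which the controls cancel, called 7 genes (0.0375%), 5 higher (0.0268%) and 2 lower (0.0107%) with NRCWE-030. Tspan4 was higher by 0.84 (SE 0.097, limma adjusted p = 1.67e-05), Per2 by 0.94 (SE 0.12, limma adjusted p = 0.000175), Hlf by 1.15 (SE 0.21), Nr1d2 by 0.96 (SE 0.18) and Map3k6, a stress kinase, by 1.20 (SE 0.23). Arntl was lower by 1.33 (difference -1.33, SE 0.18, limma adjusted p = 0.000258) and Spon2 by 1.48 (difference -1.48, SE 0.25, limma adjusted p = 0.0104). Dbp, at a difference of 1.75 (SE 0.40, limma adjusted p = 0.200), and Hsph1, at 0.18 (SE 0.29), did not pass. With median centring in place of loess 0 genes passed.

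The effect of 162 µg on day 28 was tested against that on day 1 as an interaction over all 69 arrays, and 37 genes (0.198%) passed, 12 of them (0.0643%) with the effect of day 28 above that of day 1 and 25 (0.134%) with it below. The acute phase gene Saa1 was at 4.78 (SE 0.53) on day 1 and 0.57 (SE 0.23) on day 28, a difference between days of -4.21 (SE 0.75, limma adjusted p = 0.00105). Its neighbour Saa2 went from 3.57 to 0.25, Orm1, also an acute phase gene, from 2.82 to 0.06 (well above background on 1 of 5 control arrays of day 28), and Timp1 from 3.18 to 0.34. On day 28 the probes of Saa1 gave 0.97 (SE 0.34) and 0.18 (SE 0.14), the latter well above background on 0 of 5 control arrays. Those of Timp1 gave 0.60 (SE 0.31) and 0.07 (SE 0.12). Saa3 was at 7.31 on day 1, and its difference between days of -5.20 (SE 1.30) did not pass (limma adjusted p = 0.0794).

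Some estimates had opposite signs on day 1 and day 28, although of the day 28 values in the next sentences only those of Slc13a4 and Mmp9 passed. Slc13a4 was at -1.10 (SE 0.17) on day 1 and 0.72 on day 28 (difference 1.82, SE 0.24, limma adjusted p = 4.06e-06), and Adamts9 at 0.53 and -0.51 (difference -1.04, limma adjusted p = 8.35e-06). Dpep1, a dipeptidase, went from -1.03 to 0.36, Myom3 from -0.91 to 0.22 and Fbxo31 from -0.52 to 0.15, while Fads2, a fatty acid desaturase, went from 0.59 to -0.16, Il1r2, the decoy receptor of interleukin 1, from 1.36 to -0.23 and Asprv1 from 0.98 to -0.64. Mmp9 was at 0.35 (SE 0.21) on day 1, which did not pass, against -1.11 on day 28 (difference -1.46, limma adjusted p = 0.0126), and Cirbp at -0.25 against 0.56.

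For the clock genes named here and Tspan4 the difference between days did not pass. Arntl was at -1.51 (SE 0.24) on day 1, with a difference between days of 0.14 (SE 0.34), Dbp at 1.79 (SE 0.38) with 0.48 (SE 0.54), Nr1d2 at 0.92 (SE 0.21) with 0.00 (SE 0.30), Per2 at 0.66 (SE 0.13) with 0.08 (SE 0.19), and Tspan4 at 1.16 (SE 0.14) with -0.40 (SE 0.20). These 5 passed on day 1 against the controls of that day, as did 3.14% of all genes, while Hlf did not (0.66, SE 0.25, limma adjusted p = 0.148), with a difference between days of 0.55 (SE 0.35). Spon2 was at -0.67 (SE 0.29, limma adjusted p = 0.252) on day 1, and the difference between days of -1.43 (SE 0.41) did not pass (limma adjusted p = 0.163).

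**Figure D3:**
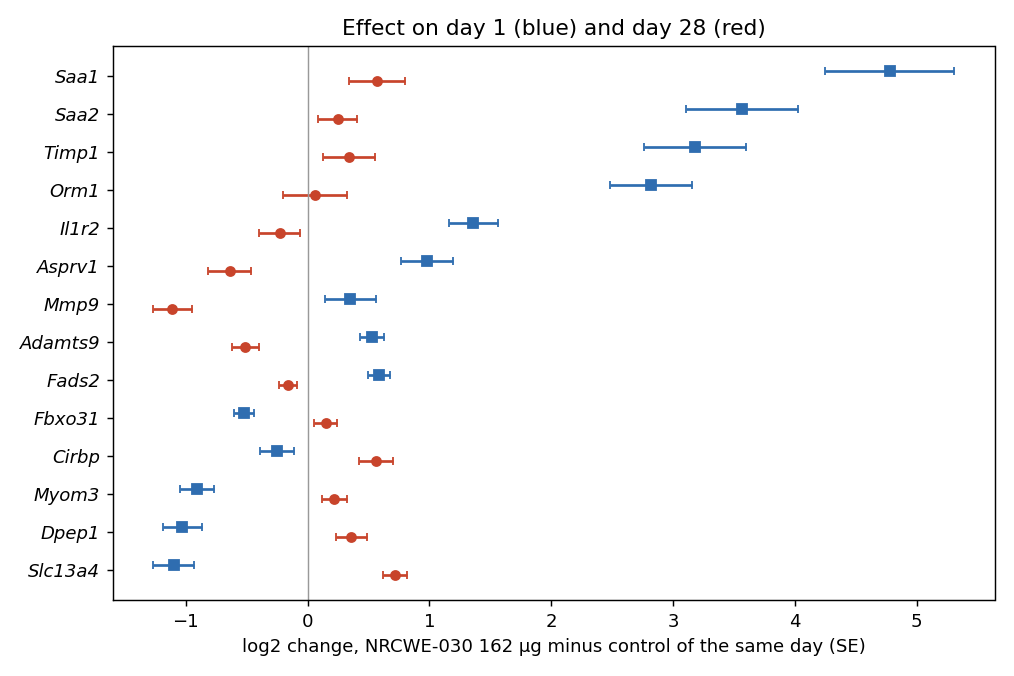
log2 change of NRCWE-030 162 µg against the control of the same day, with SE, on day 1 (blue squares) and day 28 (red circles) for 14 genes whose effect differed between the days in limma. The SE of day 28 came from the fit of 20 arrays and that of day 1 from the fit of all 69. The lengths of the bars are therefore not comparable between days. Saa1, Saa2, Timp1 and Orm1 were between 2.82 and 4.78 on day 1 and between 0.06 and 0.57 on day 28, and Slc13a4, Dpep1, Myom3 and Fbxo31 were below 0 on day 1 and above it on day 28.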

How the data were processed

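The authors measured whole-lung RNA on Agilent 4x44K mouse arrays in 2 colours, with each mouse in Cy5, a reference pool in Cy3 and no dye swap, read with Agilent Feature Extraction (version 11.0.1.1). The deposited scanner files hold median spot and local background signals as linear intensity, a log10 ratio (LogRatio, Cy5 over Cy3) made by the scanner software, and flags (other columns) of 0 or 1, per the file headers. A table of log2 values, made by the authors with LOWESS within arrays, was deposited too and served as an alternative.

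From the intensities, spots marked as outliers were left out. Local backgrounds that the software marked as outliers were replaced by the array median of the others, since without this the background fit gave implausible values on some arrays of the series (the lowest fitted Cy5 background mean was -259.4 without and -14.41 with it). Background was corrected by normexp (offset 50), followed by loess within arrays. Spots of a probe and probes of a symbol were combined by the median. Of 41174 probes, 27484 (66.8%) matched a symbol in RefSeq GRCm38.p6, used for names and start regions only. Of 18753 symbols, 93 without a value on some array were left out.

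The contrast with control was fitted with limma 3.58.1 (R 4.3.3) on 20 arrays (control and 3 doses of day 28), with Benjamini-Hochberg adjustment over 18660 genes and a threshold of 0.05. The contrast of materials used the 34 arrays of day 28, that of days all 69. The scripts were tested on simulated data, and plots used matplotlib 3.10.9 in Python 3.11.15. Arrays were grouped by their labels. Replicate numbers follow accession order and pair nothing. The comparison, gene lists and tests were chosen with earlier results of these data known. Genes named were those that passed (up to 40), the next by p up to 25 as values, and of each list the members that passed, preset anchors and the 3 of smallest p, and up to 10 for each other contrast, with list extremes named after their values were seen. The number of arrays and the signal over background limit the precision. Alternatives covered background correction, scaling, probes, dim genes, moderation, slide, scan day, the arrays fitted and leaving out each array.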

Additional observations from a re-analysis of the deposited data

Results flagged for a closer look

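In 12 of 200 groups of 5 arrays, over the genes named, the lowest or highest array lay far from the rest, and chance gives about 1 in 20. For the treated mice these were Nr1d2 in replicate 5 (1.44), Col1a1 in replicate 5 (-1.40) and Fos in replicate 4 (-0.09). For the controls they were Orm1 (1.31), Ccl9 (0.29), S100a9 (6.92) and Msln (-1.80) in replicate 4, Tef (0.27) and Upk3b (1.33) in replicate 5, Cry1 (-0.38) and Spp1 (-4.15) in replicate 3, and Cpeb1 (-0.06) in replicate 2.

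The effect of 162 µg differed between day 28 and day 1 in limma's interaction test for 14 named genes. On day 28 minus day 1 it was higher for Slc13a4 (1.82), Dpep1 (1.39), Myom3 (1.13), Cirbp (0.81) and Fbxo31 (0.67). It was lower for Saa1 (-4.21), Saa2 (-3.32), Timp1 (-2.85), Orm1 (-2.76), Asprv1 (-1.62), Il1r2 (-1.59), Mmp9 (-1.46), Adamts9 (-1.04) and Fads2 (-0.75).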

How the results depend on the processing

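Counts of calls moved with the processing, and the cause was not tested. Against control, 18 genes passed. The count was 5 without replacing marked backgrounds, 10 without background correction, 34 in the series matrix values, 5 with median centring, 50 and 72 with slide as a fixed and a random block, 33 from the 10 arrays alone, 3 by Welch's test per gene, and 4 without the arrays of slide 6, a choice made after seeing the data. Leaving out 1 array gave 11 (control replicate 3) to 38 (18 µg replicate 5). The dose test called 19, and 3, 11, 53, 4, 52, 96, 29 (scan day as a block), 5 (ordinary F-test) and 7 (without slide 6) in the same order of settings, with 4 (without control replicate 2) to 56 (without 18 µg replicate 5) on leaving out 1 array. It was 10 without control replicate 1 or 3, 38 without 54 µg replicate 2 and 12 without 18 µg replicate 2. Against the lower doses 0 passed, 1 with scan day as a block, and 0 on leaving out any array.

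Against NRCWE-025, 7 passed. The count was 4 without replacing marked backgrounds, without background correction, in the scanner log ratio and with scan day as a block, 0 with median centring, 11 with the mean over probes and 3 without slide 6, with 3 (162 µg replicate 3) to 17 (162 µg replicate 5) on leaving out 1 array. It was also 3 without 162 µg replicate 4 or NRCWE-025 replicate 3 or 4, and 4 without 162 µg replicate 1 or 2 or NRCWE-025 replicate 2. Between days, 37 passed, against 18 (without replacing marked backgrounds), 24 (no background correction), 77 (scanner log ratio), 9 (median centring), 66 (random slide block) and 15 (without slide 6), with 19 (control day 28 replicate 2) to 48 (162 µg day 1 replicate 4). On day 28 it was 19 without 162 µg replicate 4 and 23 without replicate 1 of either group, and on day 1 it was 21 without control replicate 1 or 162 µg replicate 2 and 22 without 162 µg replicate 1. Of the 18 genes, none changed sign against control under the 16 alternatives or on leaving out 1 array, while the majority of calls turned from higher (11 of 18) to lower (20 of 34) in the series matrix values. Some list medians changed sign: with median centring, matrix genes (0.01) and cell cycle genes (0.16), where all genes shifted by 0.118, complement genes without treated replicate 3 (-0.02), and fat genes without control replicate 4 (0.04). So did alveolar type 1 (0.12) and smooth muscle and fibroblast genes (0.11) with median centring, heart and skeletal muscle genes (0.08) and bicluster-9 (0.14) with slide as a fixed block, and further lists whose median was at most 0.10 in size. No paired analysis was possible because the replicate numbers follow accession order, so that mice share only slides, which were fitted as a block above.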

Other observations

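Genes of the glucocorticoid and fasting response leaned to higher values in the treated lungs. Of 18 tested 0 passed in limma, 6 had an unadjusted p under 0.05, all higher (3.96% of all genes), and the median was 0.32. The mean over the list was 0.90, 1.13, 0.79, 1.1 and 0.51 in the treated mice and 0.66, 0.69, 0.71, 0.18 and 0.24 in the controls, so that the groups overlapped and controls 4 and 5 were the lowest.

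Complement genes (21 tested, median 0.07) held 2 higher and 1 lower with an unadjusted p under 0.05, cholesterol and lipid genes (27, median -0.05) 3 and 2, smooth muscle and fibroblast genes (14, median -0.15) 0 and 3, fat genes (13, median -0.37) 0 and 1, and red cell and platelet genes (11, median 0.07) 0 and 1. Airway epithelial genes (18) and xenobiotic metabolism genes (16) held 0. In limma 0 genes of these lists passed. Over all genes 3.96% had an unadjusted p under 0.05 as higher and 3.55% as lower. The fat median rested on control replicate 4, whose list mean was 3.71 against 0.94 to 1.88 in the other controls, and was 0.04 without it. Bicluster-4 (14 tested), bicluster-5 (35), bicluster-6 (23) and bicluster-10 (16) had medians of 0.06, 0.03, -0.03 and 0.07.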
